A study of Rattus norvegicus with 15 samples.

Results

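The transcripts described here encode the oxidoreductases and esterases of odorant metabolism: alcohol, aldehyde and aldo-keto enzymes, carbonyl reductases, short-chain dehydrogenases of the Dhrs series, aldehyde oxidases, flavin monooxygenases, cytochrome P450 reductase, epoxide hydrolases and carboxylesterases. Probes were taken by the gene name printed in the array files (Adh, Aldh, Akr, Cbr, Dhrs, Aox, Fmo, Ephx or Ces followed by a digit, or Por). This gave 66 probes with 61 gene names among the 41012 gene probes of the array. RNA came from the olfactory epithelium of naive Brown Norway rats aged 6 weeks, 4 males (rats 1, 2, 5 and 6) and 4 females (rats 3, 4, 7 and 8), and no rat carried an engineered allele or received a treatment according to the labels. Each nostril, called A or B, was hybridised separately on a 1-colour whole-genome array, and only nostril A of rat 1 was present, so there were 15 arrays. The epithelium is a mixture of olfactory neurons, sustentacular cells, glands, basal cells and underlying tissue, and in such samples fewer cells of a type cannot be told apart from less RNA per cell.

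Odorants are small lipophilic molecules that enter the nose with each breath, and the epithelium that detects them also breaks them down. Alcohol dehydrogenases oxidise alcohols to aldehydes, aldehyde dehydrogenases and aldehyde oxidases carry these on to acids, and aldo-keto and carbonyl reductases run the carbonyl step the other way. Flavin monooxygenases add oxygen to nitrogen and sulphur atoms, cytochrome P450 reductase feeds electrons to every microsomal P450, epoxide hydrolases open reactive epoxides, and carboxylesterases split esters, many of which smell of fruit. Much of this chemistry is known to sit in the sustentacular cells and Bowman's glands.

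Levels are given as log2 of the signal over the median of the same array, with a floor of -3.32 (0.1 of that median). The array medians lay between 57.4 and 83.4 intensity units, and 26233 to 28741 probes per array were well above background. Probes differ in how well they hybridise, so a level is comparable between samples for one probe and not between probes. As a check of the labelled tissue, Omp of mature olfactory neurons and the sustentacular genes Cyp2a3a and Cyp2g1 were well above background on all 15 arrays, whereas the muscle genes Ckm and Acta1 were so on 2 arrays each and 0 muscle probes passed the filter for testing. The arrays lay on 4 slides, with male rats 1 and 2 and nostril A of female rat 3 on slide 1, the rest of female rats 3 and 4 on slide 2, male rats 5 and 6 on slide 3 and female rats 7 and 8 on slide 4. Sex could therefore be compared inside a slide only on slide 1.

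Most of the enzymes were transcribed in this tissue. A probe was called expressed when well above background on at least 11 of the 15 arrays, weakly expressed on 1 to 10 and not expressed on 0. By this rule 49 of the 66 probes (46 gene names) were expressed, 5 weakly expressed and 12 not expressed, and each of the 49 was detected on all 15 arrays. Among all probes of the array 65.1% were expressed, against 74.2% here. No probe of these families was saturated on any array.

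**Figure D1:**
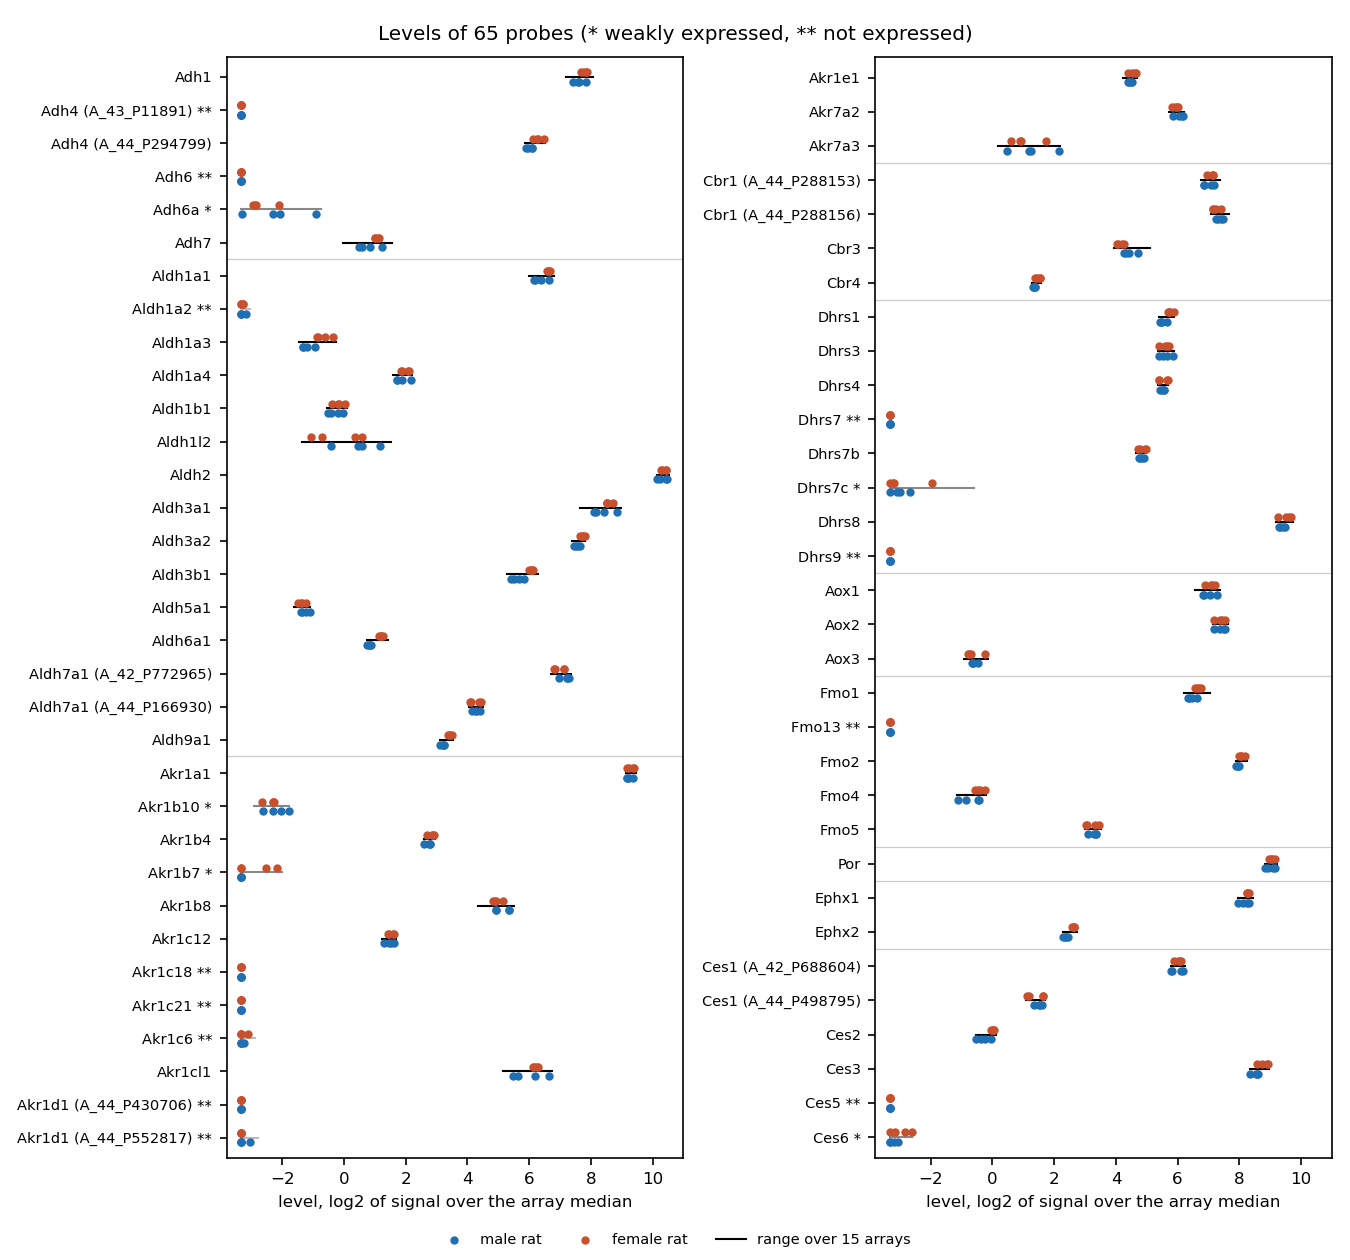
Level of 65 probes, as log2 of the signal over the array median (x axis), by family (separated by grey lines). Blue points are the 4 male rats and red points the 4 female rats (mean of both nostrils, 1 nostril for rat 1), lines span the 15 arrays, and the 12 probes marked with a double asterisk lie at or near the floor of -3.32.

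The alcohol dehydrogenases lie side by side on chromosome 2 (rn3 positions 235751580 to 235973780), and neighbours in this cluster of 6 probes were on opposite sides of detection. Adh1 (now Adh1c), a class of enzyme that oxidises ethanol and other small alcohols, ran from 7.19 through a median of 7.67 to 8.06 over the arrays. Adh7, which also acts on retinol and is known from upper digestive and airway epithelia, ran from -0.04 through 1.04 to 1.56. Adh6 was at the floor on every array, and Adh6a, weakly expressed, was detected on 8 arrays, with rat means between -3.29 and -0.92.

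Both probes named Adh4 could not be read as one gene. A_43_P11891 was well above background on 0 arrays, while A_44_P294799, on chr2:235970526-235973780 of rn3, was expressed on all 15, from 5.86 through 6.15 to 6.51. The detected probe is shown because its 60 bases are placed over a stretch of 3255 bases, so that it crosses an intron and reads a spliced transcript.

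Adh4 A_44_P294799: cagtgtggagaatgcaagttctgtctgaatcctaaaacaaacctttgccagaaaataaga

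The accession that the array gives for this probe was not among those of the RefSeq gene table used here, whereas that of the undetected probe is Adh4 there. Whether the detected probe reads Adh4 or another alcohol dehydrogenase is therefore not settled by accession. Its bases look like those of the class III enzyme, Adh5, although no alignment was run. All its values are those of a probe under the array's name and may not be those of Adh4.

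Aldehyde dehydrogenases were detected almost throughout, with 14 of 15 probes expressed. Aldh2, the mitochondrial enzyme that clears acetaldehyde, varied little, from 10.13 through 10.34 to 10.55. Aldh3a1, an oxidant-induced enzyme abundant in cornea, ran from 7.65 through 8.52 to 8.98, and its neighbour Aldh3a2, which oxidises fatty aldehydes, from 7.40 through 7.66 to 7.82. Of the retinaldehyde dehydrogenases, which make retinoic acid, Aldh1a1 ran from 6.01 to 6.80 and Aldh1a3 from -1.47 to -0.25, and Aldh1a2 was not detected on any array. Aldh7a1, which acts on osmolyte and lysine-derived aldehydes, was expressed by both of its probes. Of the other members, Aldh1a4, Aldh1b1, Aldh1l2, Aldh3b1, Aldh5a1, Aldh6a1 and Aldh9a1 were all expressed.

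Carbonyl reduction was represented by 3 families. Among the aldo-keto reductases 8 of 15 probes reached the expressed class, with 2 weak and 5 undetected. Akr1a1, the general aldehyde reductase, stayed between 9.14 and 9.45, and Akr1b4 (now Akr1b1), the aldose reductase, between 2.60 and 2.95. In the Akr1c group on chromosome 17, whose members mostly reduce ketosteroids and prostaglandins, Akr1c18, Akr1c21 and Akr1c6 were not expressed, while Akr1c12 (1.24 to 1.68) and Akr1cl1 (5.15 to 6.74) were expressed on all arrays. Akr1b8, Akr1e1 (now Akr1e2), Akr7a2 and Akr7a3 were expressed too, while Akr1b10 was detected on 10 arrays and Akr1b7 on 3, all of female rats 3 and 4. Both probes of Akr1d1, the liver steroid 5-beta-reductase, were not expressed. All 4 Cbr probes were expressed, with both probes of Cbr1, which reduces quinones and other carbonyls, on all 15 arrays, and Cbr3 and Cbr4 likewise. In the Dhrs series 5 of 8 probes were expressed, among them Dhrs8 (now Hsd17b11) at 9.17 to 9.75 and the retinaldehyde reductase Dhrs3 at 5.37 to 5.88. Dhrs1, Dhrs4 and Dhrs7b were expressed as well, and Dhrs7 and Dhrs9 were not.

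Dhrs7c, an enzyme of the muscle sarcoplasmic reticulum, was well above background on 1 array only, nostril A of female rat 7, at -0.61 against -2.67 or lower on the other 14. On that array the muscle genes Ckm and Acta1 were at 2.90 and 1.93, their highest values in the series, and they were detected elsewhere only in nostril A of male rat 6, at 0.91 and -0.62. The part of muscle RNA in the Dhrs7c value was not tested.

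The 3 aldehyde oxidases were all expressed. Aox1 and Aox2, which oxidise aldehydes and nitrogen heterocycles and lie near each other on chromosome 9, ran from 6.56 to 7.36 and from 7.15 to 7.64, and Aox3 from -0.93 to -0.15. The flavin monooxygenases Fmo1, Fmo2 and Fmo4, which lie near each other on chromosome 13, were expressed on all arrays, as was Fmo5 on chromosome 2, whereas Fmo13 was not expressed. Fmo2, the form best known from lung, was the steadiest of these, from 7.88 through 8.05 to 8.24. Por, the electron donor for the P450 enzymes, ran from 8.83 through 9.08 to 9.20. Ephx1, the microsomal epoxide hydrolase, ran from 7.94 to 8.45, and the soluble Ephx2 from 2.30 to 2.73.

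Carboxylesterases were detected by 4 of 6 probes. Ces3 (current names Ces1d and Ces1dl1) ran from 8.33 through 8.60 to 8.96. Ces2 was expressed between -0.53 and 0.11, Ces6 was detected on 2 arrays, both of female rat 4, and its neighbour Ces5 on 0. The name Ces1 covers a pair of probes from different accessions, both placed on chromosome 19. They are shown because they carry similar letters and yet fell on different sides of the 1% limit among rats. Aligned without gaps over 43 bases they share 33, shown in capitals.

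Ces1 A_42_P688604 (Ces1e), chr19:14927399-14927458 of rn3: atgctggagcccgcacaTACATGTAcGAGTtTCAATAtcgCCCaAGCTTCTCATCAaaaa

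Ces1 A_44_P498795, chr19:14879456-14879515 of rn3: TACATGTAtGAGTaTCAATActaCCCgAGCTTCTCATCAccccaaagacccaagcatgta

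A_42_P688604 ran from 5.77 to 6.25 over the arrays and A_44_P498795 from 1.08 to 1.70. Because of the shared letters, signal of one transcript on the probe of the other cannot be told apart here.

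The widest differences in the whole set were between individual rats. Both nostrils of a rat gave close values, with a median within-rat SD of 0.10 over the 51 probes tested (0.12 over all probes), and the F test of limma asked whether rats of the same sex differed beyond that. At an adjusted p under 1%, 2 of the 51 probes were called, Akr7a3 and Ces1 A_44_P498795, which is 3.92% against 2.79% of the 27574 probes tested on the array. At 5% there were 11 of 51, or 21.6%, against 16.1% of all probes, and 23 of 51 (45.1%) had an unadjusted p under 0.05, against 37.1% of all. The 1% count was 0 without rat 2, 3, 5, 6, 7 or 8 and 1 without rat 4, and at 5% it was 4 without rat 7, 6 without rat 8, 7 without rat 2 and 1 with normexp background correction. The 5% list held Fmo4, Ces3, Fmo5, Dhrs4, both probes of Aldh7a1, Adh4 A_44_P294799, Dhrs3 and Aldh1l2 besides the first 2. The range over the 8 rats had a median of 0.45 in these families and 0.47 over all probes tested.

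Akr7a3, which reduces the dialdehyde of aflatoxin B1, stood out most. Its rat means were 1.18, 0.47, 1.26 and 2.15 in male rats 1, 2, 5 and 6 and 0.61, 1.75, 0.88 and 0.93 in female rats 3, 4, 7 and 8 (limma F = 14.5, adjusted p = 0.0082). Male rat 6 and female rat 4 were high, and in both animals both nostrils were above every array of the other rats (2.12 and 2.18, and 1.42 and 2.08). The highest rat was 3.2-fold above the lowest. Hbb (beta globin) and Alas2 (haem synthesis in red cells), the 2 genes on the array of a list of 4 for blood, were detected on all 15 arrays, and their summed levels were 9.51, 7.63, 9.75 and 10.43 in the same males and 6.81, 9.70, 6.65 and 7.67 in the same females. Rats 6, 5, 4 and 1 were the highest 4 of 8 for both, and the part of blood in the Akr7a3 values was not tested.

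Aldh1l2, a mitochondrial enzyme of folate metabolism, had the widest range among probes expressed on all arrays. The males were at -0.43, 0.60, 1.17 and 0.45 and the females at -0.70, -1.08, 0.36 and 0.59 (limma adjusted p = 0.041), a 4.74-fold span from female rat 4 to male rat 5. The 5 probes of bone genes (Col1a1, Ibsp and Sparc, 3 of a list of 4), all expressed, summed, were at 11.47, 12.22, 12.81 and 12.18 in the males and 11.39, 11.28, 12.15 and 12.22 in the females. Rats 5 and 4 were again the highest and the lowest, and the part of bone or its lining in this enzyme's values was not tested. Adh6a had a span of 5.18-fold between its rat means, from -3.29 in male rat 1 to -0.92 in male rat 5, but its adjusted p was 0.086 and its lower values lay below the background limit.

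**Figure D2:**
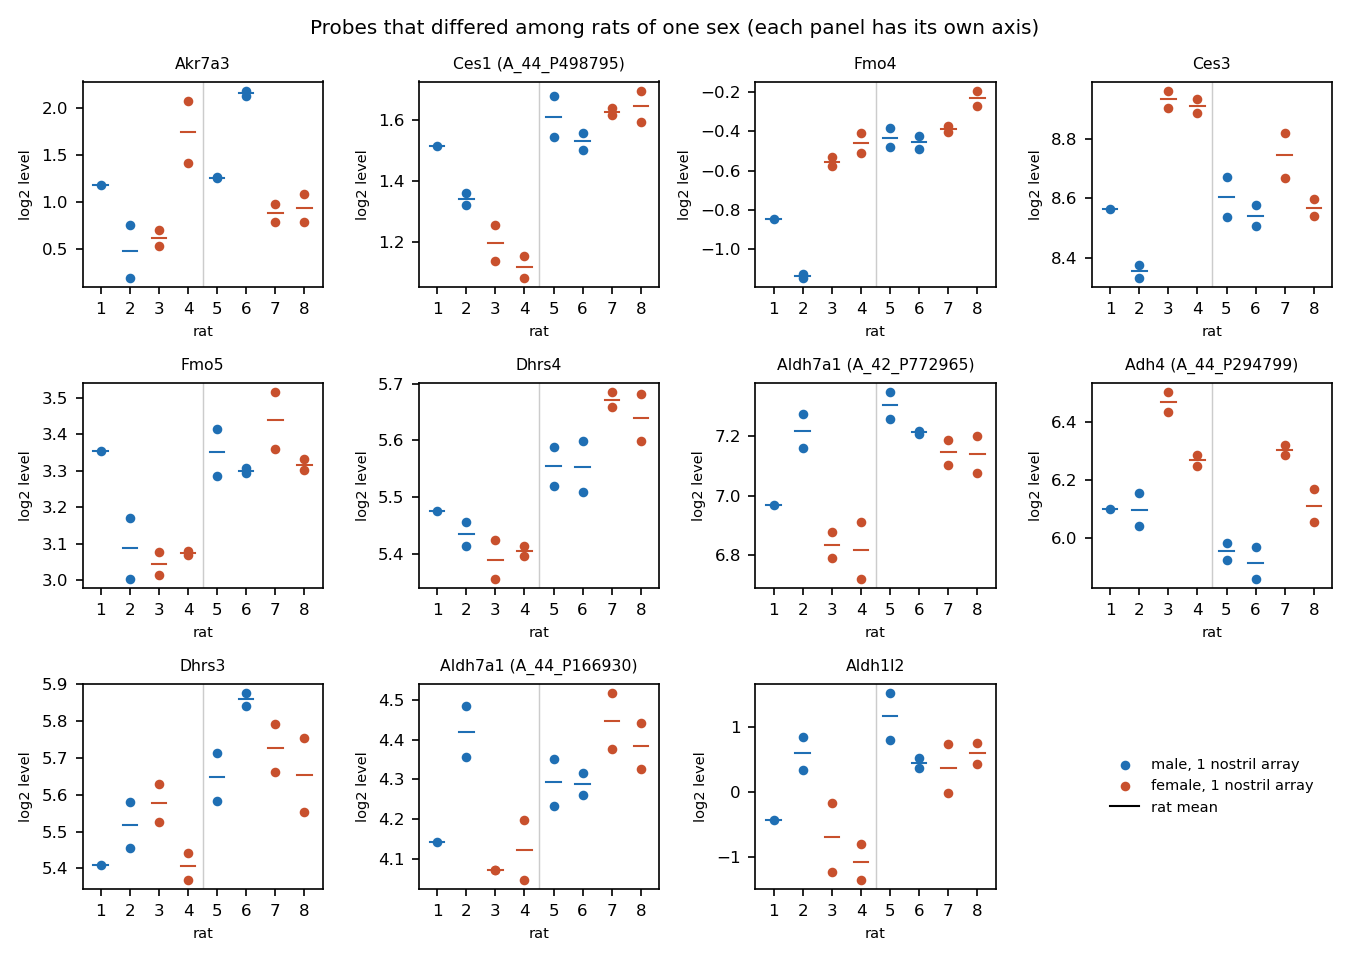
Levels (log2 of signal over the array median) by rat of the 11 probes with an adjusted p under 5% among rats of one sex. Points are single nostril arrays, short lines rat means, blue males and red females, and the grey line separates rats 1 to 4 (slides 1 and 2) from rats 5 to 8 (slides 3 and 4), whose rat means were higher without overlap for Ces1 A_44_P498795, Fmo4, Dhrs3 and Dhrs4.

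The carboxylesterase and monooxygenase differences were narrower, and 2 of the 4 such probes past 5% separated rats by slide. Ces1 A_44_P498795 was at 1.52, 1.34, 1.61 and 1.53 in male rats 1, 2, 5 and 6 and at 1.20, 1.12, 1.63 and 1.65 in female rats 3, 4, 7 and 8 (limma adjusted p = 0.0099). Rats 5 to 8 were all above rats 1 to 4. Fmo4 was at -0.85, -1.13, -0.43 and -0.46 in the males and -0.55, -0.46, -0.39 and -0.23 in the females (limma adjusted p = 0.014), again without overlap between both sets of slides, although rats 4 and 6 were equal to the digits given. Ces3 differed otherwise, being high in female rats 3 and 4 (8.93 and 8.91) and between 8.35 and 8.74 in the other rats (limma adjusted p = 0.020). Fmo5 was at 3.36, 3.09, 3.35 and 3.30 in the males and 3.05, 3.07, 3.44 and 3.32 in the females (limma adjusted p = 0.026), with rat 1 level with rats 5 to 8.

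Rats 5 to 8 lay wholly above rats 1 to 4 for 7 of the 51 probes (13.7%, against 6.75% of all probes tested) and wholly below for 0 (4.6% of all). The 7 were Por, both Ces1 probes, Akr1cl1, Fmo4, Dhrs3 and Dhrs4, with mean differences between 0.18 (Por and Dhrs4) and 0.50 (Akr1cl1). These sets of rats were chosen from the slide numbers in the file headers, after values had been seen, and slide, animal and any supplier difference cannot be told apart across them. Of 10 probes tested for circadian regulators, 6 were higher in rats 5 to 8 without overlap, 1 was lower and 3 overlapped. Dbp, a PAR bZIP activator, was at 5.89, 6.00, 5.82 and 5.87 in rats 1 to 4 and at 6.78, 6.99, 7.01 and 7.07 in rats 5 to 8, while the clock activator Arntl was between 3.33 and 3.97 in rats 1 to 4 and between 2.51 and 2.86 in rats 5 to 8. Probes of Per1, Per2 and Hlf were those that overlapped. In a wider list of enzymes of odorant metabolism, described below, 5 of 47 probes were higher in rats 5 to 8 without overlap and 0 were lower. Of the cell type markers, 2 of 3 probes for basal cells, both of Trp63, 1 of 5 for bone and 1 of 8 for mature olfactory neurons were so higher. There were 0 in the other cell type lists. The basal cell probes, summed, were between 5.58 and 5.90 in rats 1 to 4 and between 6.00 and 6.36 in rats 5 to 8. The part of clock output or of these cells in the enzyme values was not tested.

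**Figure D3:**
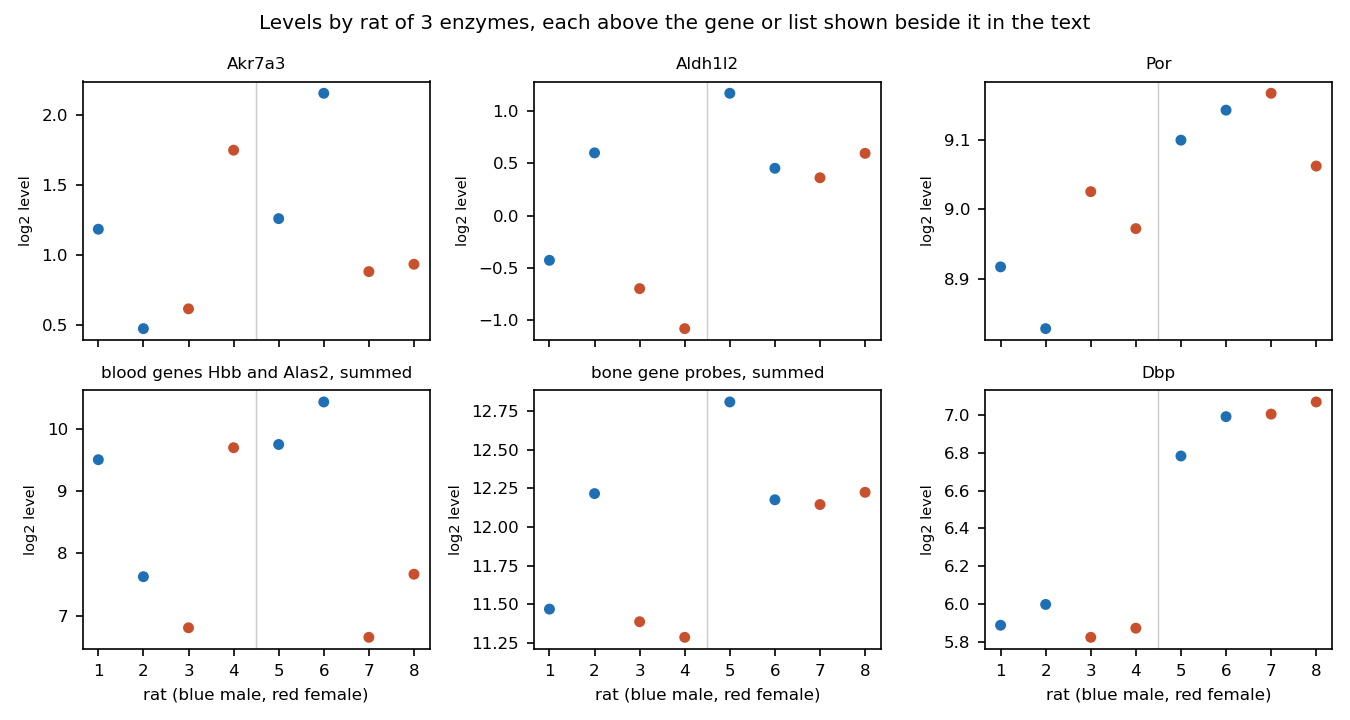
Rat means (log2 of signal over the array median) of Akr7a3, Aldh1l2 and Por (top) above the blood genes, the bone genes and Dbp (bottom), with blue for males and red for females. Akr7a3 and the blood genes were both highest in rat 6, Aldh1l2 and the bone genes both highest in rat 5 and lowest in rat 4, and Por and Dbp were both higher in rats 5 to 8 than in rats 1 to 4. Por and Dbp were drawn from the probes that separated these sets, as 6.75% of all probes tested did, so their likeness follows from that choice. The other marker lists are not drawn.

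When slide entered the fit as a block, only rats on the same slide were compared, and none of the 51 probes passed 5%. Of the 51, 5 had an unadjusted p under 0.05 (9.8%, against 17.1% of all probes): Akr7a3, Aox3, Aldh1a4, Aldh1l2 and Ces3. A single probe of the whole array, 0.00363%, passed 1%. Within slides Akr7a3 differed by -0.71 for male rat 2 minus rat 1, 0.89 for male rat 6 minus rat 5, 1.04 for female rat 4 minus rat 3 and 0.05 for female rat 8 minus rat 7, and its adjusted p was 0.16. For Ces1 A_44_P498795 the within-slide differences were between -0.18 and 0.02.

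Males and females were compared with both nostrils of a rat averaged, 4 rats against 4. None of the 51 probes passed an adjusted p of 1% or of 5% in limma, against 12 probes of the array at 1% (0.0434% of 27625) and 20 at 5% (0.0724%). The direction was uneven, with a female mean above the male mean for 35 of the 51 probes (52.1% of all probes tested were so) and a median difference of 0.10 against 0.01 over all. At an unadjusted p under 0.05 there were 13 of 51 probes (25.5%, against 17.1% of all), 12 of them with the female mean higher (12.2% of all probes tested) and only Cbr3 with it lower. With normexp background correction in place of the scanner's signal 4 of 51 had such a p, and 6.63% of all probes. In 9 of 51 every female rat lay above every male rat (8.82% of all probes), and in 0 every male lay above every female (2.52%).

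Aldehyde dehydrogenases made up 6 of those 12. Aldh6a1, which oxidises methylmalonate semialdehyde, was at 0.75, 0.84, 0.80 and 0.88 in the males and 1.25, 1.14, 1.20 and 1.19 in the females, without overlap. The difference, female minus male, was 0.38 (SE 0.07, n = 4 rats a sex, limma adjusted p = 0.098). Aldh3b1, an enzyme for lipid aldehydes, was at 5.42, 5.52, 5.66 and 5.84 in the males and 5.99, 6.10, 6.05 and 6.11 in the females, also without overlap. Its difference was 0.46 (SE 0.09, limma adjusted p = 0.098). Aldh1a3 had the widest difference of the 6, 0.51 (SE 0.15, limma adjusted p = 0.14). The males lay between -1.32 and -0.95 and the females between -0.88 and -0.36. Aldh9a1, which works in carnitine synthesis, Aldh3a2 and Aldh1a1 differed by 0.22, 0.18 and 0.29, and of these 3 the sexes overlapped only for Aldh1a1, although the nearest male and female rats were within 0.01 of each other for Aldh3a2.

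Outside that family Ephx2 was at 2.37 ± 0.06 (SD, n = 4) in males and 2.63 ± 0.04 (SD, n = 4) in females, with a difference of 0.25 (SE 0.06, limma adjusted p = 0.12). Dhrs1 differed by 0.25 (SE 0.07, limma adjusted p = 0.14) and Adh4 A_44_P294799 by 0.27 (SE 0.08, limma adjusted p = 0.16), both without overlap. Ces3, Ces2 and Fmo1 differed by 0.27, 0.31 and 0.22, with overlapping sexes. Cbr3, a carbonyl reductase, was at 4.43 ± 0.21 (SD, n = 4) in males and 4.14 ± 0.12 (SD, n = 4) in females.

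**Figure D4:**
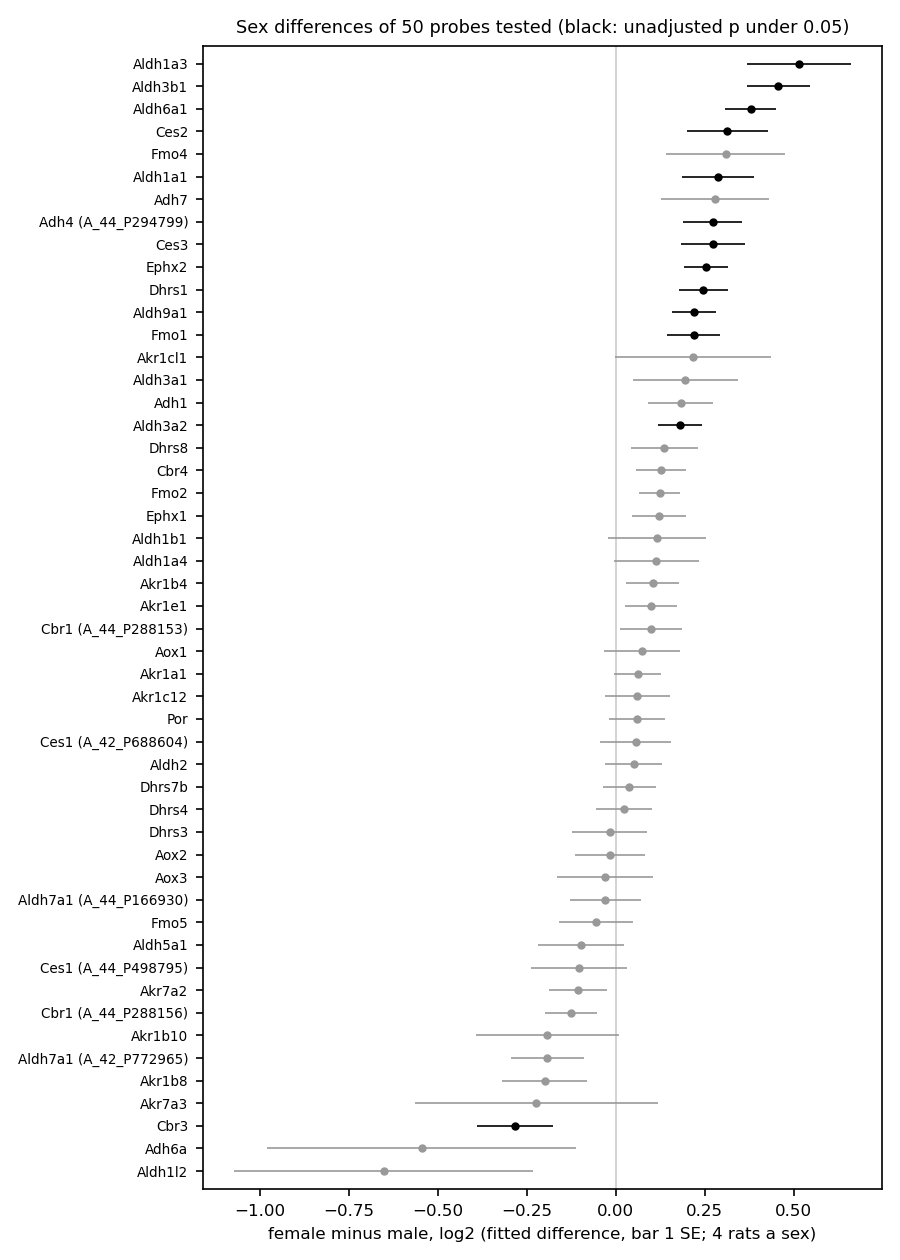
Fitted difference, female minus male on the log2 scale (x axis), of 50 of the probes tested, with bars of 1 SE (4 rats a sex). Black points mark the 13 probes with an unadjusted p under 0.05, of which Cbr3 alone lies below 0, and no probe passed an adjusted p of 5%.

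On slide 1, the only slide with both sexes, 1 female array stood against 3 male arrays, which also enter the comparison above. It was above the male mean for 35 of the 51 probes and for 16360 of all 27625. The difference was 0.27 for Aldh6a1, 0.42 for Aldh3b1, 0.32 for Aldh1a3, 0.21 for Ephx2 and 0.03 for Dhrs1. For all 51 probes the median of this difference was 0.20, against 0.06 over all probes tested. A fit with slide as a block and the nostrils of a rat correlated rests its sex contrast on this slide, with slide 2 entering only through that correlation, so that its female arm there is 1 array, assumed to vary like the rest. It called 4 of 51 probes at 5% (5.65% of all probes) and 0 at 1% (1.71% of all). The 4 were Ces1 A_42_P688604, Ces3, Aldh2 and Adh4 A_44_P294799, with estimates of 0.36, 0.46, 0.35 and 0.38. Aldh2 and Ces1 A_42_P688604 differed by 0.05 and 0.06 without the block.

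A wider list of enzymes of odorant metabolism was read in the same way. Of a list of 50 such genes (P450 enzymes, conjugating enzymes, quinone reductases and others), 44 were on the array with 54 probes, of which 47 were tested. None passed 1% for sex in limma in either direction, 17 of 47 had an unadjusted p under 0.05 with the female mean higher (12.2% of all probes tested), and 1 (Hmox1, haem oxygenase) with it lower. Ugt2a1, the olfactory glucuronosyltransferase, differed by 0.43 (limma adjusted p = 0.083) and the olfactory P450 Cyp2g1 by 0.31 (limma adjusted p = 0.098). Among rats of one sex 1 of these probes passed 1%, that of the sulfotransferase Sult1a1, and 8 of 47 passed 5%, near the 16.1% of all probes.

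No probe of the cell type markers passed 1% for sex in limma, and their values are given beside those of the enzymes. The 7 sustentacular probes tested, of which 6 are also in the list just described, had a median difference of 0.31, and their summed level was between 12.35 and 12.54 in males and between 12.48 and 12.64 in females. All 7 were expressed, and 4 had an unadjusted p under 0.05 with the female mean higher, all among those 6, while Sec14l3, the 1 marker outside that list, differed by 0.05. Of 6 probes for Bowman's glands 2 had such a p with the female mean higher, both of the odorant-binding protein Obp1f (2.65 and 2.57, limma adjusted p = 0.21 and 0.22), and 1, of lysozyme (Lyz), with it lower. The summed level of the gland probes was between 8.59 and 8.93 in males and between 8.63 and 9.12 in females. Of 8 probes for mature olfactory neurons, with a median of 0.08, 3 had such a p with the female mean higher. They were Gnal A_43_P10315 (0.19), Gnal A_44_P137560 (0.27) and Stoml3 (0.15), while Gnal A_44_P591729 differed by 0.08 and Omp by -0.01. Of 4 probes for immature neurons 1, of Gng8, had such a p with the female mean lower (-0.24), and the 3 for basal cells had a median of -0.20, with 0 at such a p. Both probes tested for ensheathing glia had such a p with the female mean lower (median -0.46), and their summed level was between 6.88 and 7.59 in males and between 6.28 and 7.21 in females. The blood genes had a median of -1.67, with 1 of 2 at such a p and summed levels between 7.63 and 10.43 in males and between 6.65 and 9.70 in females. The bone probes had a median of -0.49, with 0 of 5 at such a p. The part of these cells in the enzyme differences was not tested.

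Nostrils A and B were compared inside the 7 rats that had both. None of the 51 probes passed 1% or 5% in limma, nor did any of the 27574 probes (0%), and 6 of 51 (11.8%) had an unadjusted p under 0.05, against 5.89% of all. The median size of the nostril difference was 0.05 in these families and 0.05 over all probes.

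**Figure D5:**
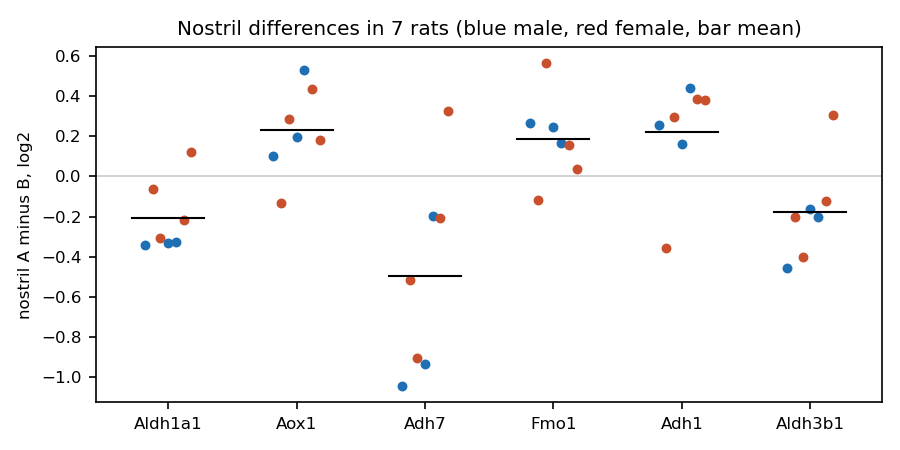
Nostril A minus nostril B (log2, y axis) in each of 7 rats for the 6 probes with an unadjusted p under 0.05. Blue points are males, red points females and bars means, and none of the 6 had an adjusted p under 5%.

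Those 6 fell into opposite directions. Adh7 was lower in A by 1.05, 0.52, 0.90, 0.94, 0.20 and 0.21 in rats 2, 3, 4, 5, 6 and 7 and higher by 0.32 in rat 8, with a mean of -0.50 (SE 0.16). Aldh1a1 (mean -0.21, SE 0.06) and Aldh3b1 (mean -0.18, SE 0.08) were also lower in A in all rats but rat 8. Aox1 (0.23, SE 0.07), Fmo1 (0.19, SE 0.07) and Adh1 (0.22, SE 0.09) were higher in A in all rats but rat 3. The limma adjusted p was 0.78 for each of the 6. Rat 3 was the only rat with nostrils on different slides (A on slide 1, B on slide 2). Its A minus B is therefore also a difference between slides. With slide in the fit the estimates were 0.32 for Adh1, -0.49 for Adh7 and -0.23 for Aldh1a1. Of 4 probes on the array for respiratory epithelium and motile cilia 2 were tested, with a summed level between 8.59 and 8.86 in males and between 8.69 and 8.90 in females. Among them Foxj1, a regulator of motile cilia, was lower in A in the 5 rats 2, 4, 5, 6 and 7 and higher in rats 3 and 8, with differences between -0.46 and 0.24 and the same limma adjusted p of 0.78. Cyp2g1 of sustentacular cells was lower in A in 6 of 7 rats, with a mean difference of -0.11 (limma adjusted p = 0.78). The sustentacular markers, summed, were lower in A in 5 of 7 rats, with a mean difference of only -0.04. Of the same list Cyp2a3a was higher in A in 4 of 7 rats (mean -0.03), and Cyp4b1 had a mean of 0.06. The summed markers of basal cells and of ensheathing glia were higher in A in 6 of 7 rats each, by a mean of 0.18 and 0.29. The part of such cells in these values was not tested. No probe of these families differed in its nostril effect between the sexes at an adjusted p of 5% in limma, and 2 of 51 did at an unadjusted p under 0.05, against 2.36% of all probes.

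Of the genes with a pair of probes, Aldh7a1 was past 5% among rats by both probes, with adjusted p of 0.029 and 0.038 in limma's F test, but A_42_P772965 was highest in male rat 5 and lowest in female rat 4, and A_44_P166930 highest in female rat 7 and lowest in female rat 3. Their female minus male differences were -0.19 (SE 0.10) and -0.03 (SE 0.10). Cbr1 gave a female minus male difference of 0.10 (SE 0.09) by one probe and -0.13 (SE 0.07) by the other, neither past the threshold, and the first was -0.06 with slide as a block. The probes named Adh4, which may read different genes, were split by detection. Those of Ces1 were split by limma's F test, where A_42_P688604 had an adjusted p of 0.054.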

How the data were processed

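Total RNA from each nostril was labelled with Cy3 and hybridised to Agilent whole rat genome arrays. The authors extracted spot intensities with Agilent Feature Extraction, and the deposited scanner files hold the background-subtracted signal, with detection and outlier flags. The deposited series table holds a ratio, each signal divided by its array median and then by the probe median, with negative signals raised by the authors, and was used as an alternative. Flagged spots (61 to 175 per array, 0 of these families) were left out, spots of a probe averaged, signals divided by the array median with a floor of 0.1 and log2 taken. Probes well above background on at least 7 of 15 arrays were tested (51 of 66; the other 15 have detection calls only). Limma 3.58.1 in R 4.3.3 (lmFit, eBayes with trend) gave: female minus male on rat means; nostril A minus B with rat as block, 14 arrays; and F tests among rats of one sex with nostrils as error. Benjamini-Hochberg adjustment ran over all probes tested, with calls at 1%. The fits were tested on simulated data, where those for sex and for rats did not recover the smallest changes simulated, about the size of the widest sex difference named among the enzymes. The authors compared groups with a t-test; on these rat means it is among the alternatives, with other scalings, normexp background correction, floors, filters, slide as block, and each rat left out. Differences in low signals are understated by the floor.

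Values of 1 member are not reported here by name and are not drawn, though it is in the counts. Genes named were the other members by detection class, a list of enzymes known in nasal mucosa or central to their family, those past 5% in a comparison or the 5 with the lowest p, the 10 with the widest range among rats, and genes whose probes were split by a threshold. The split of rats by slide was added after values were seen. Members, gene lists and named genes were chosen with earlier results of these data known. Rats came from more than one supplier, which the labels do not give per rat, so that suppliers were not compared. Array positions are those of rn3 in the files. Of 66 probes, 49 had 1 current symbol through accessions, 1 had several and 16 none. The number of arrays limits the precision. The rats are separate animals, whereas both nostrils of 1 rat share an animal.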

Additional observations from a re-analysis of the deposited data

Results flagged for a closer look

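In groups of 4 rats of one sex, 6 of 90 groups held a rat whose gap to the nearest other, as a share of the group's range, passed Dixon's 95% limit, and chance flags about 1 in 20. The share was 0.94 for Aldh3a1 in female rat 4 (8.70, against 8.52 to 8.54 in the other females). It was 0.93 for Akr1b10 in female rat 7 (-2.66, against -2.29 to -2.27). It was 0.90 for Cbr1 A_44_P288153 in female rat 8 (6.95, against 7.13 to 7.14) and 0.90 for Adh6a in female rat 3 (-2.11, against -2.93 to -2.85). It was 0.88 for Ces2 in female rat 4 (-0.04, against 0.02 to 0.03) and 0.87 for Akr1b4 in male rat 1 (2.61, against 2.77 to 2.79), an animal with 1 array.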

How the results depend on the processing

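The count of probes past 1% among rats of one sex, 2 in the values reported, was 4 with quantile normalization, 1 each with normexp background correction, the authors' value table and no trend in eBayes, and 0 with slide as a block. It lay between 0 and 2 when each rat was left out in turn, and at 5% between 4 (without female replicate 7) and 13, and the identity of the called probes changed with the floor: at 0.5 of the median Fmo4 was called in place of Akr7a3. Over all probes the 1% count for rats was 768, against 1450 (quantile), 1305 (75th percentile), 404 (no trend), 78 (normexp) and 1 (slide as a block), and for sex 12, against 1033 (15 arrays), 473 (slide as a block), 34 (random block), 8 (t-test) and 3 (expressed probes only). The cause was not tested. For sex the count stayed at 0 under all alternatives but one, the 15 arrays as independent samples (6), which counts both nostrils of a rat as separate animals. The methods' t-test gave 0 of 51 at 1% and 1 at 5%. With slide as a random block, chosen after seeing the data, sex gave 0 at 1% and 4 at 5%. The median female minus male difference of the 51 probes lay between 0.05 (normexp) and 0.10 over the scalings, and that of all probes between -0.02 and 0.01. With normexp 4 probes had an unadjusted p under 0.05 for sex in place of 13. For the nostrils the count was 0 under every alternative run, without the rat as replicate block too (0 at 1%, and 3 of 51 at an unadjusted p under 0.05). The expressed count of 49 ranged from 49 to 55. Of the 5 sex and 5 nostril differences with the lowest p none reversed. With slide as a block 8 of the 51 sex differences changed sign, none of them with an unadjusted p under 0.05 (Adh1 from 0.18 to -0.06, Adh6a from -0.55 to 0.42, Akr7a2 from -0.11 to 0.16, and Aox2, Aox3, Cbr1 A_44_P288153, Dhrs3 and Dhrs4), as did 4 nostril differences. Signals near background limit Adh6a, Akr1b10 and the probes not tested.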
